A study of Rattus norvegicus with 6 samples.

Results

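Glutathione is the tripeptide thiol with which cells reduce peroxides and tag reactive compounds for export. Glutamate-cysteine ligase, made of the subunits Gclc and Gclm, joins glutamate to cysteine, and glutathione synthetase (Gss) completes the molecule. Glutathione peroxidases and transferases consume it, glutathione reductase (Gsr) regenerates it, and superoxide dismutases, catalase, peroxiredoxins and thioredoxin reductases run beside it. In the epididymis, the duct in which sperm mature, such enzymes act inside the epithelium, and some are secreted into the space around cells or sperm. Genes of these enzymes were examined in 6 arrays of the rat epididymis. A gene was a member if its symbol began with Gst, Mgst, Gpx, Prdx, Txnrd, Sod or Ggt (all but Gst, Mgst and Txnrd followed by a digit) or was Cat, Gclc, Gclm, Gsr, Gss, Nqo1, Hmox1 or Srxn1. This gave 56 of the 18166 genes that could be named, each with 1 probe set. Gpx5, Ggt1, Ggt5, Gstt1, Gstt3 and Gstz1 were not analysed here.

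The 3 basal arrays held RNA of a basal cell fraction and the 3 non-basal arrays RNA of the remaining cells, both from epididymides of Sprague-Dawley rats aged 48 days, separated by a magnetic method. Both groups come from intact animals with no treatment or mutation named. The labels give neither the surface molecule of the separation, nor the region of the duct, nor how many rats stand behind an array, so p-values rest on differences among the samples of a fraction, and these may be technical only. Values are log2 RMA levels, background-corrected and normalized between arrays, and a difference is always basal minus non-basal on that scale. The word higher or lower is used for a limma p-value, adjusted over all 18166 genes, under 0.05.

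The labelled fractions were checked with marker genes. All 8 basal epithelial markers, among them Tp63, Krt14 and Itga6, were higher in the basal fraction, with a mean log2 level of 10.88, 10.87 and 10.52 in basal replicates 1 to 3, against 7.40, 8.32 and 8.36 in non-basal replicates 1 to 3. All 7 fibroblast markers, all 5 measured smooth muscle and pericyte markers and all 5 measured endothelial markers were lower. The fibroblast mean was 7.17, 7.85 and 9.43 in the basal arrays and 11.71, 12.64 and 12.50 in the non-basal arrays. Of 6 lymphocyte markers 4 were lower, among them Prf1 at -3.33 and Nkg7 at -3.30, with means of 5.88, 5.93 and 6.20 in basal arrays and 7.18, 7.83 and 7.87 in non-basal arrays. Of 9 macrophage markers 2 were lower, and their mean was 7.43, 7.80 and 7.48 in basal arrays against 7.65, 8.85 and 8.72 in non-basal arrays. Of 9 measured principal cell markers 1 was lower, with means of 10.28, 10.69 and 11.35 in basal arrays and 11.34, 11.22 and 11.25 in non-basal arrays. The lowest value of any marker gene was 3.99, for a sperm or germ cell gene. A value on this scale does not by itself show that a transcript was detected. Basal replicate 3 and non-basal replicate 1 thus stood apart from their fractions in several marker lists, and results that rest on them are given with and without them.

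Of the 56 antioxidant genes, 11 were higher in the basal fraction, 7 were lower and 38 did not pass. The share called was 32.1%, beside 14.9% of all genes tested. By direction 19.6% were higher, beside 7.71% of all genes, and 12.5% were lower, beside 7.14%. Among genes with a mean of at least 7 in 1 fraction the shares lay closer, with 40.4% of 47 members called beside 27.2% of all 10876 genes. The genes that were higher make glutathione (Gclc, Gclm, Gss), conjugate it (Gstp1, Gsta1, Gstm2, Mgst1), reduce peroxides in the cell (Gpx2, Prdx1) or reduce thioredoxin (Txnrd1), with Gstcd, a protein with a transferase-like domain, besides. The genes that were lower encode the secreted enzymes Gpx3 and Sod3, mitochondrial Sod2, haem oxygenase Hmox1, Gpx7 of the endoplasmic reticulum, the phospholipid peroxidase Gpx4 and the omega-class transferase Gsto1. In bulk RNA, fewer cells of a type and less RNA per cell cannot be told apart. The calls depended on single arrays: on dropping basal replicate 1, 4 members were higher and 4 lower, with 6.56% of all genes called. On dropping basal replicate 2 there were 4 and 3 (5.98% of all genes), for non-basal replicate 2 there were 6 and 3 (6.94%), and for non-basal replicate 3 there were 3 and 2 (5.88%). Without basal replicate 3 and non-basal replicate 1 together, a setting chosen after seeing the data, 17 were higher, 9 were lower and 25.4% of all genes were called.

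Both subunits of glutamate-cysteine ligase and glutathione synthetase were higher in the basal fraction. Gclc, the catalytic subunit, had levels of 11.22, 11.15 and 11.17 in basal replicates 1 to 3, against 10.38, 10.51 and 10.35 in non-basal replicates 1 to 3. The 3 basal values lay within 0.0627 of each other and well above all non-basal values, so that Gclc was higher by 0.77 ± 0.0695 on the log2 scale (SE here and after each ±; adjusted p = 0.00266, limma), or 1.70-fold. Gclm, the modifier subunit, had 11.15, 10.94 and 10.95 in basal arrays against 10.51, 10.13 and 10.35 in non-basal arrays, a difference of 0.69 ± 0.118 (adjusted p = 0.0147). Gss, which adds glycine, had 9.15, 9.15 and 9.05 against 8.67, 8.37 and 8.29, a difference of 0.67 ± 0.113 (adjusted p = 0.0136). For all 3 genes the basal values lay above all non-basal values, as in 15 of the 56 members and 17.6% of all genes; 10 members lay wholly below, beside 15.3%. The fractions did not overlap for 25 members, beside 32.9% of all genes. Gsr, which reduces oxidised glutathione, did not pass, with a difference of 0.19 (95% interval -0.26 to 0.64), and non-basal replicate 1 carried its highest value, 9.54. Without that array its adjusted p was 0.0392. The Gclc call held in all 6 fits with 1 array left out. The Gclm call ended when basal replicate 1, basal replicate 2 or else non-basal replicate 3 was dropped, and the Gss call on dropping any of these or non-basal replicate 2.

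**Figure D1:**
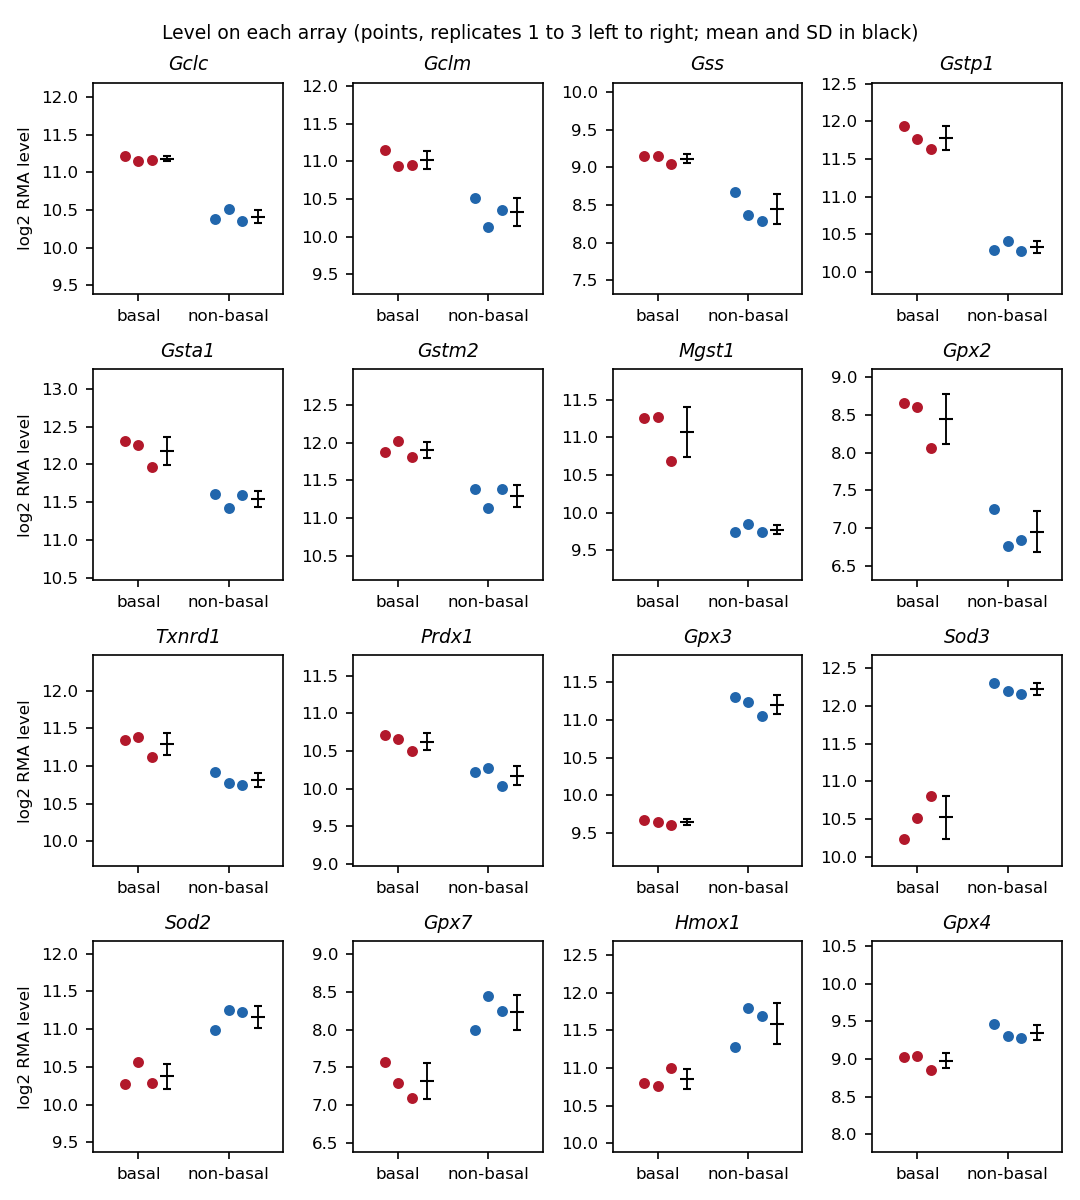
Log2 RMA level of 16 antioxidant enzyme genes on each array, basal replicates 1 to 3 in red at the left and non-basal replicates 1 to 3 in blue at the right of each panel, with the mean and SD (n = 3) in black. Every panel spans the same height on the log2 scale. Genes of the upper panels, from Gclc to Prdx1, lie above in the basal arrays, and those from Gpx3 to Gpx4 lie below, with no overlap between fractions in any panel.

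Glutathione transferases couple glutathione to electrophiles and fall into several classes. Gstp1, the pi-class enzyme, had levels of 11.94, 11.77 and 11.63 in basal arrays and 10.29, 10.42 and 10.28 in non-basal arrays. The gap between the fractions was far wider than the spread within them, with a log2 difference of 1.45 ± 0.0992 (limma adjusted p = 0.00197), or 2.73-fold. Its neighbour in class, Gstp3, did not pass (-0.23, 95% interval -0.60 to 0.13). Mgst1, a membrane-bound microsomal transferase that also reduces lipid peroxides, had 11.25, 11.27 and 10.69 in basal arrays against 9.74, 9.85 and 9.74 in non-basal arrays. Basal replicate 3 was the lowest of the basal arrays but stayed above every non-basal array, and the difference was 1.30 ± 0.166 (adjusted p = 0.00579). Mgst2, Mgst3 and Mgst3l1 did not pass, with differences of 0.18, -0.11 and 0.36. Both the Gstp1 and the Mgst1 call held in all 6 fits with 1 array left out.

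The alpha and mu classes are families of close copies, so part of the signal of a probe set may come from a related gene. In the alpha class 1 of 8 members was higher and 7 did not pass, a share of 12.5%, near that of all genes. Gsta1 had 12.31, 12.26 and 11.96 in basal arrays against 11.61, 11.42 and 11.59 in non-basal arrays, a difference of 0.63 ± 0.115 (limma adjusted p = 0.0175), which ended on dropping basal replicate 1 or 2, or non-basal replicate 2 or 3. Gsta2 had a larger but uncertain difference of 1.38 ± 0.417 (adjusted p = 0.0829), with 4.96, 6.55 and 5.30 in basal arrays against 4.46, 3.93 and 4.27 in non-basal arrays. The 3 basal values of Gsta2 were above all non-basal ones but spread over 1.59. The other alpha members ranged from -0.27 for Gsta5 to 0.24 for Gsta4l1, and among them Gsta6, at 0.22 ± 0.0583, had an adjusted p of 0.0539.

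The mu class lies together on chromosome 2 and again had 1 call in 8. Gstm2 had 11.88, 12.02 and 11.81 in basal arrays and 11.38, 11.13 and 11.38 in non-basal arrays, a difference of 0.61 ± 0.10 (limma adjusted p = 0.0131), which ended on dropping basal replicate 1 or 2, or non-basal replicate 3. Gstm7 went the other way, with 10.68, 10.78 and 10.97 against 11.67, 11.14 and 11.11, but did not pass (-0.50, adjusted p = 0.117). Gstm6l, at -0.57 with a 95% interval of -1.22 to 0.09, did not pass either. Non-basal replicate 1 was the highest non-basal array for 14 of the 16 alpha and mu members, for instance for Gsta3 at 9.13 against 8.11 and 8.26 in non-basal replicates 2 and 3. The share of all genes for which it was highest was not counted. In the other classes Gstcd was higher at 0.34 ± 0.0739 (adjusted p = 0.0305, held in 2 of 6 fits that each lacked 1 array). Gsto1 was lower at -0.43 ± 0.0859 (adjusted p = 0.0237, held in 1 of those fits, without basal replicate 3). Gstk1, Gstt2 and Gsto2 did not pass, at 0.33, 0.20 and -0.06.

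The glutathione peroxidases split. Gpx2, an intracellular peroxidase best known from epithelia of the gut, had levels of 8.66, 8.61 and 8.06 in basal arrays against 7.26, 6.76 and 6.84 in non-basal arrays. The basal values were all above the non-basal values, with a log2 difference of 1.49 ± 0.208 (limma adjusted p = 0.00767), or 2.81-fold, the highest among the 56 members. Without non-basal replicate 3 its adjusted p was 0.0508. Gpx1, the widespread cytosolic peroxidase, did not pass, with a difference of -0.07 and a 95% interval of -0.50 to 0.35. Gpx4, which reduces lipid peroxides in membranes, had 9.03, 9.04 and 8.86 in basal arrays against 9.46, 9.31 and 9.28 in non-basal arrays, a difference of -0.38 ± 0.0852 (adjusted p = 0.0361), lost in every fit with 1 array left out and on centring arrays on their median. Of the peroxidases of the endoplasmic reticulum, Gpx7 was lower at -0.92 ± 0.166 (adjusted p = 0.0178), a call lost without basal replicate 2, non-basal replicate 2 or non-basal replicate 3. Gpx8, at -0.60 ± 0.169, did not pass (adjusted p = 0.0678) but did without non-basal replicate 1 (adjusted p = 0.0145).

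Secreted enzymes made up 3 of the 56 members, and 2 of them were lower in the basal fraction, beside 7.14% of all genes. Gpx5, a further secreted enzyme, was not analysed here, so these 3 are not the full secreted set. Gpx3, the extracellular glutathione peroxidase, had 9.68, 9.65 and 9.61 in basal arrays against 11.31, 11.24 and 11.06 in non-basal arrays, a log2 difference of -1.56 ± 0.0829 (limma adjusted p = 0.00147), or 2.94-fold lower. Sod3, the superoxide dismutase that binds to the extracellular matrix, had 10.24, 10.52 and 10.81 against 12.31, 12.20 and 12.16, a difference of -1.70 ± 0.149 (adjusted p = 0.00258), or 3.25-fold lower. Both fractions were well apart for both genes, and both calls held in all 6 fits with 1 array left out. Gpx6, known as a secreted peroxidase of olfactory tissue, had 5.53, 5.63 and 5.69 in basal arrays and 5.63, 5.55 and 5.83 in non-basal arrays, which overlap (-0.05, 95% interval -0.28 to 0.18). All its values lay below the medians of single arrays, 6.63 to 6.70, so its sign carries little weight. The median difference of the 3 secreted members was -1.56, against 0.08 for the 53 cell-bound members. Of the cell-bound members 11 were higher (20.8%, beside 7.71% of all genes), 5 were lower (9.43%, beside 7.14%) and 37 did not pass. All 3 secreted members had a negative difference, as had 23 of the 53 cell-bound members and 8921 of all 18166 genes. The difference between secreted and cell-bound members was not tested, and Gpx6 turned to 0.03 without non-basal replicate 3. The cell-bound values ran from -0.92 for Gpx7 to 1.49 for Gpx2, so Gpx3 and Sod3 lay below all of them. Markers of several other cell types were lower in the same comparison, 7 of 7 for fibroblasts, 5 of 5 for smooth muscle and pericytes, 5 of 5 for endothelium, 4 of 6 for lymphocytes and 2 of 9 for macrophages. Among basal arrays Sod3 was lowest in replicate 1 and highest in replicate 3, as were the fibroblast, smooth muscle, lymphocyte, principal cell and narrow and clear cell means. Among non-basal arrays Sod3 was highest in replicate 1, as were the principal cell, endothelial and narrow and clear cell means. The fibroblast, smooth muscle, lymphocyte and macrophage means were lowest there. Gpx3 spanned 0.0615 over the basal arrays and was lowest in replicate 3. The part of these cell types in the differences was not tested.

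The 2 measured gamma-glutamyltransferases, cell surface enzymes of the family that begins glutathione breakdown, did not pass. Ggt6 had 7.19, 7.17 and 7.15 in basal arrays against 7.17, 7.17 and 7.23 in non-basal arrays (-0.02, 95% interval -0.16 to 0.13). Ggt7 had a difference of -0.21 (95% interval -0.50 to 0.07).

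Superoxide dismutases and catalase remove superoxide and hydrogen peroxide. Sod2, the mitochondrial dismutase, had 10.27, 10.56 and 10.29 in basal arrays against 10.99, 11.26 and 11.23 in non-basal arrays, a log2 difference of -0.79 ± 0.117 (limma adjusted p = 0.00937). Dropping non-basal replicate 3 took the adjusted p to 0.0557. Cytosolic Sod1 did not pass (0.11, 95% interval -0.16 to 0.37), nor did Cat, the peroxisomal catalase, at 0.23 (95% interval -0.03 to 0.49), although its basal values of 12.09, 11.90 and 11.96 lay above the non-basal values of 11.56, 11.83 and 11.88. Hmox1, which degrades haem and is abundant in macrophages that clear red cells, had 10.80, 10.76 and 11.00 in basal arrays and 11.28, 11.80 and 11.69 in non-basal arrays. Its difference was -0.73 ± 0.153 (adjusted p = 0.0275). The call ended on dropping basal replicate 1 or 2, or non-basal replicate 2 or 3, the highest adjusted p being 0.117. Of the 7 lower members, Hmox1, Sod2 and Gpx7 were lowest among non-basal arrays in replicate 1, as were the macrophage, fibroblast and lymphocyte means. Sod3, Gpx3 and Gpx4 were highest there, as were the principal cell, endothelial and narrow and clear cell means, and Gsto1 was in between. Among basal arrays Hmox1 was lowest in replicate 2, where the macrophage mean was highest. The part of those cells in the differences was not tested. Nqo1, a quinone reductase of the cytosol, had 9.97, 10.13 and 9.54 against 9.27, 9.86 and 9.27, which overlap (0.42, 95% interval -0.13 to 0.96).

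Peroxiredoxins are thiol peroxidases, most of which are reduced by thioredoxin. Of 6 measured, 1 was higher and 0 were lower, beside 14.9% of all genes called either way. With Srxn1 added, 2 of these 7 were at an unadjusted limma p under 0.05, beside 5443 of all 18166 genes. Prdx1 had 10.71, 10.66 and 10.50 in basal arrays against 10.22, 10.27 and 10.03 in non-basal arrays, a log2 difference of 0.45 ± 0.0966 (limma adjusted p = 0.0305). Txnrd1, the cytosolic thioredoxin reductase, had 11.35, 11.39 and 11.12 against 10.92, 10.77 and 10.75, a difference of 0.47 ± 0.0965 (adjusted p = 0.026). Both sets of values were separate, but the Prdx1 call held in 1 of 6 fits with 1 array left out, without basal replicate 3, and the Txnrd1 call in 2 of 6. Prdx4, a peroxiredoxin of the endoplasmic reticulum, had 8.70, 8.71 and 7.75 in basal arrays against 7.87, 8.0 and 7.83 in non-basal arrays, so basal replicates 1 and 2 lay above and basal replicate 3 below all non-basal values. It did not pass (0.49, adjusted p = 0.284) but had a difference of 0.81 and an adjusted p of 0.00453 without that array. Srxn1, sulfiredoxin, which restores overoxidised peroxiredoxins, showed the same order with 8.30, 8.09 and 7.45 against 7.46, 7.57 and 7.51, an adjusted p of 0.238 and one of 0.00955 without basal replicate 3. Prdx2, Prdx3, Prdx5 and Prdx6 did not pass, with differences from -0.28 to 0.08, and Txnrd2 and Txnrd3 were at 0.15 and -0.09. For Prdx3 the same deposited value of 8.66 stood in 4 of the 6 arrays.

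**Figure D2:**
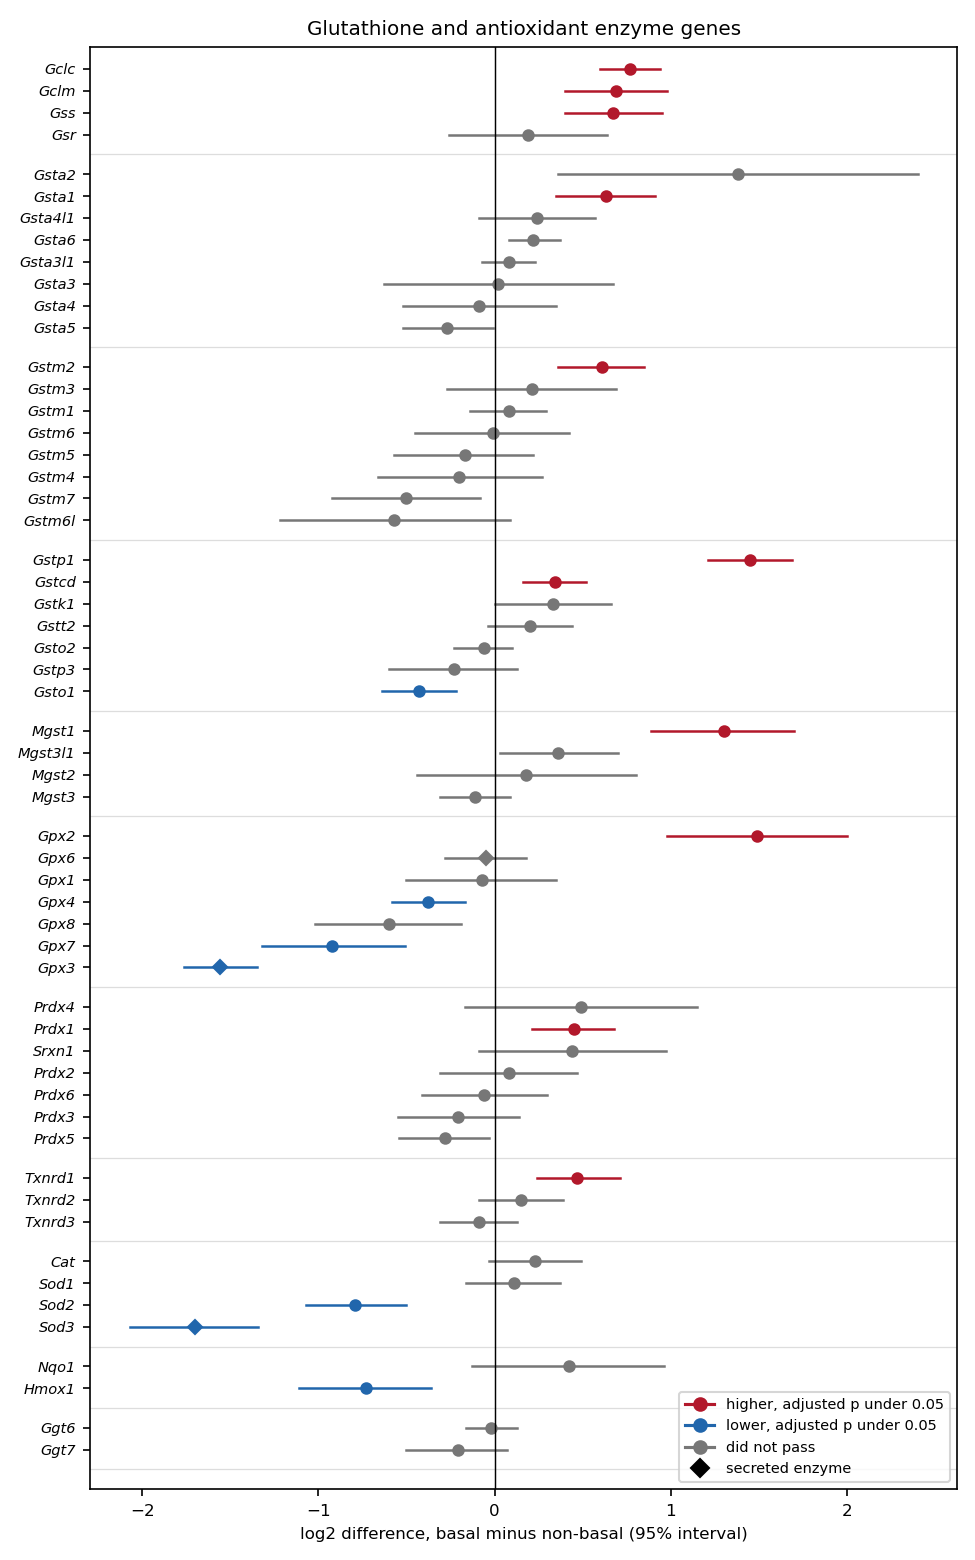
Log2 difference, basal minus non-basal, of all 56 antioxidant enzyme genes with its 95% interval from limma, grouped by family from glutathione synthesis at the top to gamma-glutamyltransferases at the bottom. Red marks the 11 genes that were higher, blue the 7 that were lower and grey the 38 that did not pass, and diamonds mark the 3 secreted enzymes, of which Gpx3 and Sod3 have the lowest differences.

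The 38 members that did not pass are not thereby alike in the fractions, but the intervals bound most of them. For 34 of the 38 the whole 95% interval lay between -1 and 1 on the log2 scale. Over all genes this held for 14426 of the 15468 that did not pass. The exceptions among members were Gsta2, Gstm6l, Prdx4 and Gpx8. By array, the 11 higher members deviated from their own means by 0.50, 0.46 and 0.25 on average in basal replicates 1 to 3, against -0.31, -0.45 and -0.45 in non-basal replicates 1 to 3. Basal replicate 3 was the basal array nearest to the non-basal values for 9 of these 11 genes. The 7 lower members deviated by -0.47, -0.43 and -0.49 in the basal arrays and by 0.40, 0.53 and 0.46 in the non-basal arrays, with basal replicate 3 nearest for 2 of 7. Over all 2698 genes called in this comparison, basal replicate 3 was nearest for 74.6%.

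**Figure D3:**
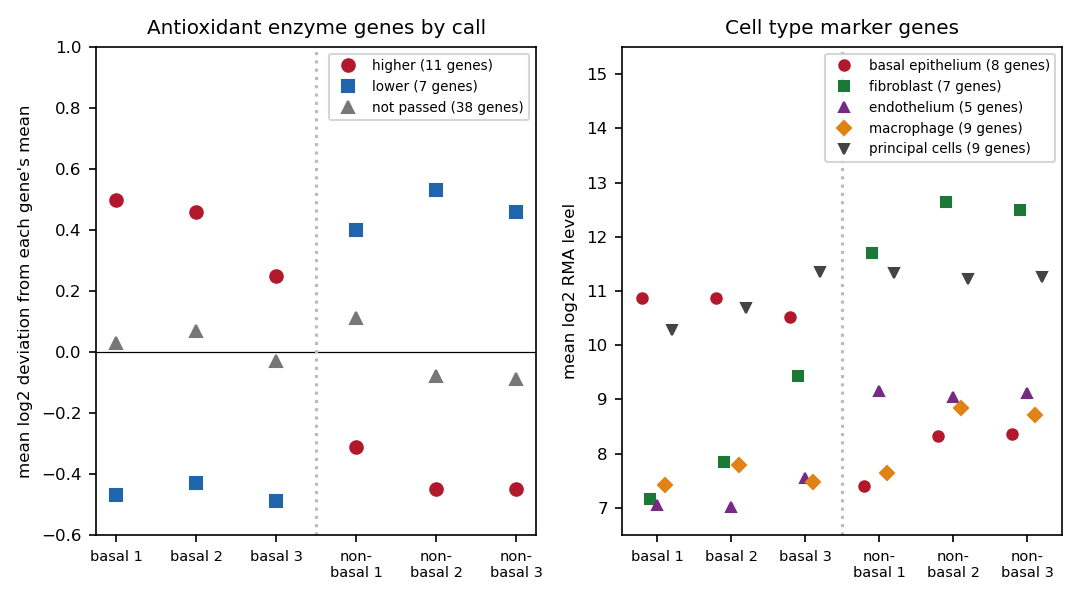
Left, mean log2 deviation of the 11 higher, 7 lower and 38 not passing antioxidant genes from each gene's own mean on each array. Right, mean log2 RMA level of marker lists on the same arrays, in which fibroblast and principal cell markers of basal replicate 3 lie nearest to the non-basal arrays and macrophage markers of non-basal replicate 1 lie near the basal arrays; points are offset sideways for legibility.

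Many genes of glutathione synthesis and conjugation are known targets of the transcription factor Nrf2 (Nfe2l2), which binds with a small Maf protein to the antioxidant response element. Hmox1, Nqo1 and Srxn1 are known targets too, of which Hmox1 was lower and Nqo1 and Srxn1 did not pass. The start regions of members are shown because several of the genes that were higher hold the core of the antioxidant response element close to their start. The core TGACNNNGC was searched on both strands in the 250 bases before each RefSeq gene start of the GRCr8 assembly, for the 48 members with an entry. With all listed starts of a gene counted, 6 of the 11 higher members held a match (Gclm, Gpx2, Gstcd, Gstp1, Prdx1 and Txnrd1), as did 1 of 5 lower members (Sod2) and 4 of 32 that did not pass (Gsta3, Gstm5, Gstm7 and Mgst3l1). A match was present in 11.0% of all 27457 genes in the table and in 10.1% of its 33469 start regions. With the looser core TGANNNNGC, which contains the stricter one, the counts were 7 of 11, 2 of 5 and 15 of 32, beside 36.6% of all genes. The motif was chosen with the calls known, and a match of these letters is not evidence of binding. In the sequences of 250 bases, written 5′ to 3′ on the strand of the gene and ending just before its start, capitals mark the match.
Gpx2 (chr6:101230034-101230283, minus strand): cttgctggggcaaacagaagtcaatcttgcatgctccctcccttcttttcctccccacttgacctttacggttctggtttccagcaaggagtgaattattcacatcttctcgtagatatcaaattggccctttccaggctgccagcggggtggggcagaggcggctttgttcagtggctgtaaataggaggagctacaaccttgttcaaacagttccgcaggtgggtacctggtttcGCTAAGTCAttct
Gstp1 (chr1:210769706-210769955, minus strand): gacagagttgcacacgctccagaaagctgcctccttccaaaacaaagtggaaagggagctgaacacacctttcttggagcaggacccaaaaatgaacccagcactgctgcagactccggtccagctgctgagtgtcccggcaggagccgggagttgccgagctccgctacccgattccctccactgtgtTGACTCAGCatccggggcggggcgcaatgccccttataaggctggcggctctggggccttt
Gclm (chr2:213031885-213032134, plus strand): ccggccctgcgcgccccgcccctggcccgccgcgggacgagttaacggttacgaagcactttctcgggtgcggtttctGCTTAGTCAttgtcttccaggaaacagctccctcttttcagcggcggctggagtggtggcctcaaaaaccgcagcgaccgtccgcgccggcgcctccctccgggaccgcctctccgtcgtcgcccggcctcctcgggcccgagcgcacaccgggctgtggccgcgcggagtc
Prdx1 (chr5:135383656-135383905, plus strand): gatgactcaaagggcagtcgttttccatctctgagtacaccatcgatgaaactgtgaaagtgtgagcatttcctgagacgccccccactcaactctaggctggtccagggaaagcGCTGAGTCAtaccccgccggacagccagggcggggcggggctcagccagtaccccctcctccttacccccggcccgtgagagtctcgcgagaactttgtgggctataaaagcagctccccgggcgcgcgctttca
Gclc (chr8:87510226-87510475, plus strand): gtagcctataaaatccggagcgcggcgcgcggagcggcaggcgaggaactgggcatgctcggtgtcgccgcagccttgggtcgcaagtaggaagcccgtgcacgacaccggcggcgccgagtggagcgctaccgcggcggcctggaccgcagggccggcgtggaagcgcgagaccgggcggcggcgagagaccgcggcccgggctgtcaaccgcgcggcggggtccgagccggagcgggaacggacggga
Gpx3 (chr10:39529085-39529334, plus strand): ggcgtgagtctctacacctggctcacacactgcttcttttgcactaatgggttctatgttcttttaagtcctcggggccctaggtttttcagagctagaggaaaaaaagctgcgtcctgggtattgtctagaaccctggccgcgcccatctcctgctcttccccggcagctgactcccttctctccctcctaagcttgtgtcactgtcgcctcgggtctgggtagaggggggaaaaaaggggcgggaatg
Sod2 (chr1:50050169-50050418, minus strand): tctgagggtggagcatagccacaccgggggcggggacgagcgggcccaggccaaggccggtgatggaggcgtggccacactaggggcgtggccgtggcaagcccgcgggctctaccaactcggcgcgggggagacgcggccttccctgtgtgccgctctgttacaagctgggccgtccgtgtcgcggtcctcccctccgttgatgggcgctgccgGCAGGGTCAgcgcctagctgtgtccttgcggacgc
The Gpx2 match began 13 bases before the start, that of Gstp1 61, that of Gclm 172 and that of Prdx1 135. In Gstp1 and Prdx1 it contains the AP-1 motif TGACTCA, which was present before 4.42% of all genes. Gclc and Gpx3 are shown beside them as a higher and a lower gene without such letters in this window.

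Other genes of the pathway were counted from 7 lists, in which 85 of 92 symbols were measured. Of these 9 were higher, 9 were lower and 67 did not pass, together 21.2% called beside 14.9% of all genes, with no filter on level. Nfe2l2 itself did not pass, with 12.38, 12.43 and 12.28 in basal arrays against 12.30, 12.23 and 12.26 in non-basal arrays (0.10, 95% interval -0.06 to 0.26), nor did Keap1, its cytosolic inhibitor (0.15, 95% interval -0.13 to 0.42). Of 10 genes of Nrf2 and Bach1 regulation 3 were higher, beside 7.71% of all genes. Bach2, a repressor that pairs with small Maf proteins, had 9.19, 9.06 and 8.67 against 7.30, 7.52 and 7.40, a log2 difference of 1.56 ± 0.147 (limma adjusted p = 0.00291), or 2.96-fold. The small Maf genes Mafg and Maff were higher by 0.59 ± 0.101 and 0.71 ± 0.124, calls that each held in 3 of 6 fits with 1 array left out, while Mafk, at 0.44, did not pass (adjusted p = 0.0699).

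Of 6 measured genes that supply NADPH, the reductant of Gsr and the thioredoxin reductases, or belong to the pathways that do, 3 were higher, beside 7.71% of all genes. Tkt, a transketolase of the non-oxidative pentose phosphate branch, which itself makes no NADPH, had 10.91, 11.03 and 10.74 in basal arrays against 10.02, 10.14 and 9.98 in non-basal arrays, a log2 difference of 0.84 ± 0.0957 (limma adjusted p = 0.00437). Malic enzyme Me1 was higher by 1.03 ± 0.165 and mitochondrial isocitrate dehydrogenase Idh2 by 0.31 ± 0.0605, each held in 2 of 6 fits with 1 array left out. Biliverdin reductase Blvrb was higher at 0.82 ± 0.155 (adjusted p = 0.0206). Blvrb was the 1 gene called of 10 of haem and iron handling, beside 14.9% of all genes called either way. It held in 1 of 6 such fits. Blvra, the other biliverdin reductase of that list, did not pass (-0.24, adjusted p = 0.17). Its basal values all lay below its non-basal values. The aldehyde dehydrogenase Aldh3a1 was higher at 1.21 ± 0.199 (held in 3 of 6) and the glutathione conjugate exporter Abcc1 at 0.28 ± 0.06 (held in 2 of 6).

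Of 16 measured genes of glutathione supply and breakdown, Abcc1 was thus higher, 2 were lower and 13 did not pass. Together 18.8% were called, near the 14.9% of all genes. Dpep1, the membrane dipeptidase that cleaves cysteinylglycine, had 6.89, 6.99 and 8.08 in basal arrays against 10.14, 11.44 and 11.32 in non-basal arrays, a log2 difference of -3.65 ± 0.462 (limma adjusted p = 0.00572), or 12.5-fold lower. Anpep, an aminopeptidase of cell surfaces, was lower at -2.13 ± 0.387 (adjusted p = 0.0178, held in 2 of 6 fits with 1 array left out). For both, basal replicate 3 was the highest basal and non-basal replicate 1 the lowest non-basal array, as for the fibroblast, smooth muscle and lymphocyte means; the part of those cells was not tested. Slc7a11, the cystine transporter, had 8.12, 8.31 and 8.63 against 9.79, 9.05 and 8.96 and did not pass (-0.91, adjusted p = 0.0657). Of 10 thioredoxin and glutaredoxin genes 1 was called, beside 14.9% of all genes. This was Glrx, cytosolic glutaredoxin, lower at -0.90 ± 0.111 (adjusted p = 0.00538). Txn1 was at 0.31 (adjusted p = 0.25).

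Of 14 measured oxidant sources 4 were lower and 0 were higher in limma, beside 7.14% and 7.71% of all genes. At an unadjusted p under 0.05 there were 5 of the 14, beside 5443 of all 18166 genes. Maob, a monoamine oxidase of mitochondria that forms hydrogen peroxide, had 7.0, 7.41 and 8.47 in basal arrays against 10.60, 10.91 and 10.73 in non-basal arrays, a log2 difference of -3.12 ± 0.366 (limma adjusted p = 0.00475). Maoa was lower at -0.39 ± 0.0748, the purine enzyme Xdh at -1.88 ± 0.379 and Rac2, the small GTPase of the phagocyte oxidase, at -1.72 ± 0.377, held in 3, 2 and 1 of 6 fits with 1 array left out. Cybb and Ncf1, further parts of that oxidase, did not pass at -0.70 and -0.49. Their non-basal values were lowest in replicate 1, at 8.01 against 9.48 and 9.28 for Cybb, as were the macrophage, fibroblast and lymphocyte means. In the remaining list Msrb3, a methionine sulfoxide reductase, was lower at -1.22 ± 0.113 (adjusted p = 0.0028) and the metallothionein gene Mt1 at -0.24 ± 0.059 (adjusted p = 0.0432, lost in every fit with 1 array left out).

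**Figure D4:**
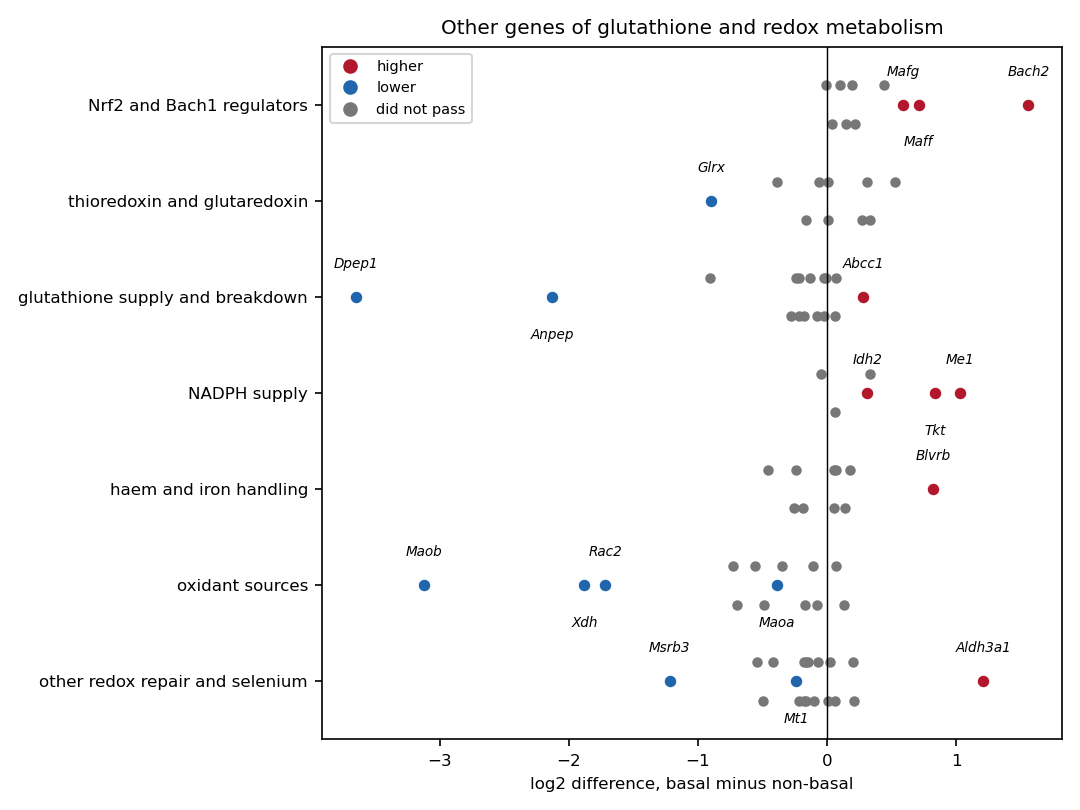
Log2 difference, basal minus non-basal, of 85 further genes of glutathione and redox metabolism in 7 lists, 1 point a gene, with the 9 higher genes in red, the 9 lower in blue and those that did not pass in grey, placed above and below the row for legibility. The red points reach 1.56 for Bach2, and the blue points reach -3.65 for Dpep1.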

How the data were processed

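RNA of each fraction was measured on 3 Affymetrix gene arrays. The deposited log2 values come from RMA run by the authors with Expression Console software, as the labels and the submitters' processing notes state; the version, probe set library and build are not given in the sources used here. The lowest was 1.46 and the highest 14.33, and medians of single arrays lay between 6.63 and 6.70. RMA matches the arrays' distributions and compresses the differences of dim and bright probe sets, and the number of arrays limits precision.

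Groups and replicate numbers came from sample titles. Names of probe sets came from the platform's annotation (18511 with 1 symbol, 575 with several, 17599 with none), and the probe set with the highest mean was used per gene. All 56 members matched the RefSeq gene table by identifier. Differences were fitted in R 4.3.3 with limma 3.58.1 (lmFit, eBayes), two-sided, with no block for replicates, 4 residual degrees of freedom, and Benjamini-Hochberg adjustment over 18166 genes. SDs are over 3 arrays. No filter was applied. The procedure was tested on simulated data. Same-numbered arrays did not deviate together (r of 0.005, -0.011 and 0.001).

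Members, lists, motif and rules were chosen with earlier results of these data known. Named were all secreted and surface members, the 10 highest and 10 lowest called members, 12 set enzymes, called pathway genes with the smallest p (up to 2 each way) and Nfe2l2 and Keap1. Gstcd, Maff, Idh2, Xdh, Rac2 and the further members named were picked with values in view. Alternatives tried were the replicate block, quantile normalization, centring, filters at a mean of 5 or 7, trend, array weights, other probe set rules and thresholds, and each array left out.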

Additional observations from a re-analysis of the deposited data

How the results depend on the processing

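Direction was the same for all 18 called members in every alternative run. Leaving out each array in turn gave 3 to 15 higher and 2 to 6 lower members, against 11 and 7 with all arrays. The share of all genes called ran from 5.88% to 19.5% in these fits. Fewer arrays leave fewer degrees of freedom. In these fits Gclc, Gpx3, Gstp1, Mgst1 and Sod3 were called 6 times of 6, Gpx2 and Sod2 5 times, and the other 11 members 0 to 3 times. Without basal replicate 3 and non-basal replicate 1 together, 17 were higher, with all 11 among them, and 9 were lower. At an adjusted p under 0.01, 4 were higher and 3 lower, and under 0.1 13 and 8. The shares of all genes at those thresholds were not counted. With the replicate block 9 were higher and 5 lower, with 11.1% of all genes called. In that fit Gpx4, Gpx7, Gstcd, Gstm2 and Gsto1 lost their call and Gpx8 gained one. The labels do not say whether same-numbered arrays share an animal. Centring ended the calls of Gpx4 and Gstcd, while quantile normalization changed no call of a member. Array weights gave 16 higher and 10 lower, with 28.6% of all genes called beside 14.9%. The all-gene median difference was 0.0034 for the deposited values, -0.0292 with quantile normalization and -0.0114 with centring.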

Other observations

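Values equal to 5 decimals on different arrays occurred in 9 of the 56 antioxidant genes (16.1%), beside 35.3% of all genes. For Prdx3 4 of 6 arrays shared 1 value. No called member had values equal to 5 decimals, though some are equal as printed here to 2 decimals, such as Gss at 9.15 on basal replicates 1 and 2.

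Non-basal replicate 1 was the highest non-basal array for 35 of the 56 members and the lowest for 10. Among the 16 alpha and mu transferase genes it was highest for 14. How often it was highest or lowest over all genes was not counted, so these counts do not set the members apart. Markers of narrow and clear cells averaged 9.69 on that array against 9.06 and 9.16 on non-basal replicates 2 and 3, and those of principal cells 11.34 against 11.22 and 11.25. The endothelial mean was highest there too. The basal epithelial, fibroblast, smooth muscle, macrophage, lymphocyte and erythrocyte means were lowest there. The part of these cell types in the member values was not tested. Without basal replicate 3 and non-basal replicate 1, a setting chosen after seeing the data, Gsta3, Gstk1, Mgst3l1, Prdx2, Prdx4 and Srxn1 passed as higher and Gpx8 and Gstm7 as lower.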
